A study of Mus musculus with 21 samples.

Results

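The genes described here encode 10 inflammatory and growth cytokines, Il6, Lif, Il11, Csf1, Csf2, Csf3, Il1b, Il33, Il15 and Tslp, in cultured smooth muscle cells of the mouse aorta. They were taken from the array annotation by gene symbol, as every probe set assigned to 1 of these symbols alone, without regard to its values. This gave 14 of 45101 probe sets (4 for Csf1, 2 for Lif and 1 for each other gene) and 10 of the 18193 genes with a probe set of their own.

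The cells came from male C57BL/6J mice of 10-12 weeks, no genetic change being named in the labels, and every group was kept in medium with serum that was renewed 24 h before stimulation. They received TNF at 1 ng/ml together with an activating antibody against the lymphotoxin beta receptor (anti-LTBR) at 10 µg/ml, TNF alone at 1 ng/ml, anti-LTBR alone at 10 µg/ml, or PBS, in which the stimuli were given. At 24 h there were 3 arrays of TNF plus anti-LTBR, 4 of TNF, 4 of anti-LTBR and 4 of PBS. The labels number the arrays 0 to 3, and TNF plus anti-LTBR has the numbers 1 to 3 only. At 2 h and at 6 h there was 1 array each of TNF, anti-LTBR and PBS, all numbered 0, and none of the combination. The comparison of the groups asks how the cytokine genes responded to each agonist and whether they responded differently when both receptors were engaged. The labels do not say whether the numbers stand for separate cultures or animals, so each p-value reflects only how these arrays spread, which may be technical.

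TNF and LTBR both signal to NF-kB transcription factors, TNF mainly through the rapid canonical branch and LTBR also through the slower alternative branch. Il6, Lif and Il11 belong to 1 family of cytokines that share the receptor subunit encoded by Il6st (gp130) and signal through Jak kinases and Stat3. Csf1, Csf2 and Csf3 are colony-stimulating factors: Csf1 keeps macrophages alive, Csf2 acts on macrophages and granulocytes, and Csf3 drives the formation of neutrophils. Il1b and Il33 belong to the interleukin 1 family, Il15 supports natural killer cells and memory T cells, and Tslp is an interleukin 7-like cytokine that acts on dendritic cells. Vascular smooth muscle cells are a known source of Il6 and Csf1 in the vessel wall.

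The promoters of Csf1, Il6 and Lif are shown because each holds a match to the NF-kB consensus decamer. These are the cytokine genes that passed a test against PBS at 24 h, Il6 only in the fit with the array number as a block, described below. The sequences are the 250 bases before the start of the gene, from RefSeq on GRCm38.p6, written 5′ to 3′ in the direction of transcription, with the match in capitals.
Csf1, chr3:107760470-107760719, minus strand: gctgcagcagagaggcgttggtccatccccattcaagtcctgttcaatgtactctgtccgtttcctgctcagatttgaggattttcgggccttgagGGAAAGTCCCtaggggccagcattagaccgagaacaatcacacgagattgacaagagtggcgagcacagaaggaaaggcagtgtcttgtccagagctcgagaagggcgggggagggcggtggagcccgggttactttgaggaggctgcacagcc
Il6, chr5:30012864-30013113, plus strand: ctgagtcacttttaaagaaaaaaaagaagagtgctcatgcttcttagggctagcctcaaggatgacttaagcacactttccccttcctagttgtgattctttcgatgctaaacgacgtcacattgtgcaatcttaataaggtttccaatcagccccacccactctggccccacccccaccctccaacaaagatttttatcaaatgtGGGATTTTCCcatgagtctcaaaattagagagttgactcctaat
Lif, chr11:4257318-4257567, plus strand: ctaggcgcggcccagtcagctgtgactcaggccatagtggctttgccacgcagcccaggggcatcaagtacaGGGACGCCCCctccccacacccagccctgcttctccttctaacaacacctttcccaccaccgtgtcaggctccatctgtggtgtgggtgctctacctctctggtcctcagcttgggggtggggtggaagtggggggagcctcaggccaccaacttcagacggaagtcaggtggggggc
The match lay 154 to 145 bases before the start of Csf1 (read on the opposite strand), 44 to 35 bases before that of Il6, and 178 to 169 bases before that of Lif, where it reads on both strands. Promoter windows of 300 bases (250 before the start and 50 after) were at hand for 7 of the 10 genes. Csf3, Il15 and Tslp had no window and were not searched. With both strands read, 3 of these 7 genes held the NF-kB decamer, in 3 of their 9 windows. Of all 32851 windows of this length, 8.46% held it. The AP-1 motif TGANTCA, bound by Fos and Jun family factors, was found in Il6, Lif and Il11, in 3 of the 9 windows, and in 7.81% of all windows. In Il6 and Lif it did not overlap the NF-kB match. The matches describe these letters only and are not evidence of binding in these cells.

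All arrays had the same trimmed mean signal, and their medians lay between 106.8 and 139.0. Smooth muscle genes were present, with 5 of 7 markers above the array median on all 15 arrays at 24 h. Fibroblast genes were present as well, with 4 of 6 markers above it on all 15. The 6 summed to 6268.6 to 12546.7 with TNF plus anti-LTBR, against 4863.7 to 9648.9 with PBS. The arrays numbered 0 stood apart: their 8 endothelial markers summed to a signal of 18476.7 to 19605.7 at 24 h and 15607.6 to 18028.6 at 2 h and 6 h, and those numbered 1 to 3 to 836 to 2491.6. Of 9 macrophage and monocyte markers, 4 (Ptprc, Itgam, Fcgr1 and Aif1) were below the array median on all 15 arrays. Above it on all 15 were 3 (Lyz2 at 236 to 1812.5, Cd14 at 136 to 476 and Csf1r at 428 to 1303.6). The 9 summed to 1548.0 to 4529.4 with TNF plus anti-LTBR, against 1396.2 to 4307.6 with PBS. By number, they summed to 1128.1 to 1396.2 on the 24 h arrays numbered 0 and 1531.6 to 4529.4 on those numbered 1 to 3. The part of these cell types in the cytokine signals was not tested. Values without the arrays numbered 0 are given for some results at 24 h, and those at 2 h and 6 h come from arrays numbered 0 only. In bulk RNA, fewer cells of a type and less RNA per cell cannot be told apart.

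With TNF at 2 h, Tslp, Il6 and Lif had the largest signals relative to PBS among the 10 genes, each at least 2-fold above the PBS array. Tslp had a signal of 637.5 with TNF, against 105.8 with PBS, a 5.58-fold difference on the log2(signal + 10.2) scale used for all folds here. Il6 had 733.2 with TNF, against 250.1 with PBS (2.86-fold), and Lif had 494.7, against 184.4 (2.59-fold). Csf1, already high in PBS, had 11397.1 with TNF and 6442.0 with PBS (1.77-fold), and its other 3 probe sets gave 1.51-fold to 1.94-fold. Only 1 array stands behind each value, so there is no test. Of the 5 cytokine genes with an array above its median in this pair, 3 were at least 2-fold higher, against 1.55% of 11716 genes. Tslp entered this count through its TNF array alone, since it was below the median on the PBS array, so the count is a description only.

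At 6 h TNF still held Tslp and Il6 above PBS, and the differences of Tslp, Il6, Lif and Csf1 were smaller than at 2 h on the probe sets used for the genes. Tslp had 563.6 with TNF, against 109.6 with PBS (4.79-fold), and Il6 had 587.2, against 248.3 (2.31-fold). Lif had 246.0 with TNF, against 144.3 with PBS (1.66-fold), and Csf1 had 9584.0, against 6498.3 (1.47-fold, and 1.63-fold to 1.76-fold on its other 3 probe sets, 1 of which had a larger difference at 6 h than at 2 h). Of 5 cytokine genes considered, 2 were at least 2-fold higher, against 2.07% of 11663 genes, and Tslp again entered through its TNF array alone.

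With the antibody to LTBR, no cytokine gene with an array above its median differed 2-fold from PBS at either early time. At 2 h 0 of 7 genes considered were at least 2-fold higher, against 0.472% of 11658 genes, and at 6 h 0 of 6, against 0.759% of 11591 genes. The nearest were Tslp at 6 h, with 170.8 on the anti-LTBR array and 109.6 on the PBS array (1.51-fold), and Lif at 6 h, with 215.4 and 144.3 (1.46-fold). At 2 h Lif had 161.6 with anti-LTBR and 184.4 with PBS, and Il6 had 270.9 with anti-LTBR and 250.1 with PBS. Csf3, below the array median on every array and so not among the genes considered, had 14.4 with anti-LTBR and 54.8 with PBS at 6 h (0.378-fold).

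**Figure D1:**
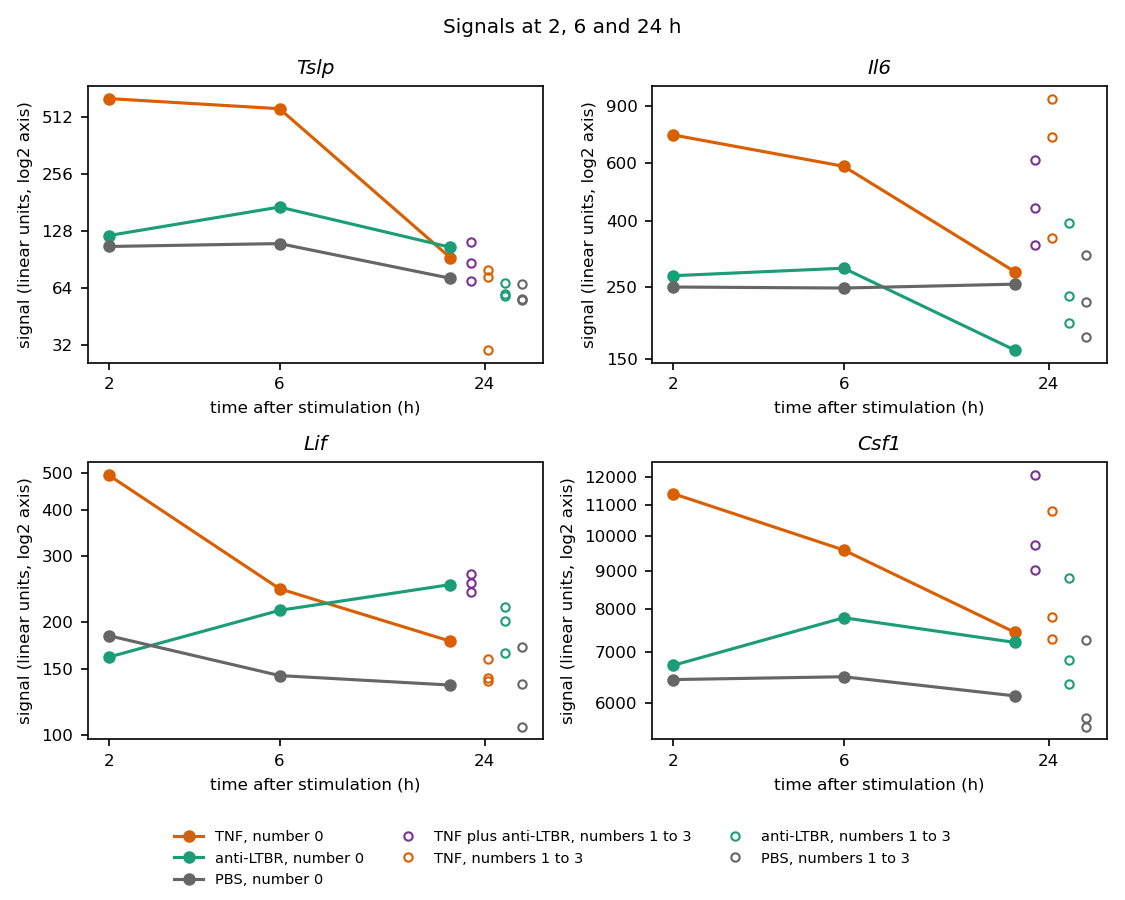
Signals of Tslp, Il6, Lif and Csf1 (1 probe set each, linear units on a log2 axis) against time in h, with filled points and lines for the arrays numbered 0 of TNF, anti-LTBR and PBS, and open points at 24 h for the arrays numbered 1 to 3 of all 4 groups. Among the arrays numbered 0, the 4 genes with TNF were highest at 2 h and lowest at 24 h, while Lif with anti-LTBR went the other way, with 161.6, 215.4 and 252.4 at 2, 6 and 24 h. Of the open points, Il6 with TNF reaches 947.9 (number 1) at 24 h, above its 2 h value of 733.2.

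Among the arrays numbered 0, the only ones that cover all times, the order of times differed between TNF and anti-LTBR for Lif. Lif had 494.7, 246.0 and 178.2 with TNF at 2, 6 and 24 h, then 161.6, 215.4 and 252.4 with anti-LTBR, and 184.4, 144.3 and 136.1 with PBS. The TNF values thus descended with time and the anti-LTBR values ascended, on 1 array a point. Tslp had 637.5, 563.6 and 92.3 with TNF, 120.8, 170.8 and 104.8 with anti-LTBR, and 105.8, 109.6 and 71.9 with PBS. At 24 h Tslp lay between 30.1 and 111.2 on all 15 arrays, and 1 of these arrays was above its own median.

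At 24 h a cytokine gene was tested if its probe set lay above the array median on at least 3 of the 15 arrays, and 6 of 10 were: Csf1, Il6, Lif, Il15, Il1b and Il33. A call is an adjusted p under 0.05 in limma over 12446 genes. With TNF plus anti-LTBR, Lif and Csf1 rose above PBS, 2 of the 6 genes tested, against 2.45% of all genes called. With the array number as a block, which removes what arrays of 1 number share, Lif, Csf1 and Il6 were called, 3 of 6, against 19.5%. The median log2 change of the 6 genes was 0.50 without the block and 0.54 with it, against 0.00 over all genes in both fits. Cell type markers moved in the same comparison: the smooth muscle gene Tagln fell by 0.30 on the log2 scale (limma, adjusted p = 0.044), and with the block Cnn1, Tagln, Myh11 and Smtn fell (4 of 7 smooth muscle markers). With the block the fibroblast markers Dpt and Pdgfra rose and Col14a1 fell (limma), and 0 of 5 tested macrophage and 0 of 7 tested endothelial markers were called in either fit. Their part in the cytokine changes was not tested.

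TNF alone and anti-LTBR alone gave 0 calls among the 6 genes without the block, against 0.337% of all genes called for TNF and 0.129% for anti-LTBR. At an unadjusted p under 0.05, Csf1 and Il6 passed with TNF (0.00986 and 0.0106, limma) and Lif with anti-LTBR (0.0031, limma). With the block 2 of 6 were called for each agonist, Il6 and Csf1 with TNF, against 5.93% of all genes, and Lif and Csf1 with anti-LTBR, against 4.78%. The 3 comparisons share the PBS arrays. Csf1 was thus called in all 3 comparisons with the block, Il6 in those that contain TNF, and Lif in those that contain the antibody. TNF against anti-LTBR, the test of a difference between the agonists, is given with each gene.

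**Figure D2:**
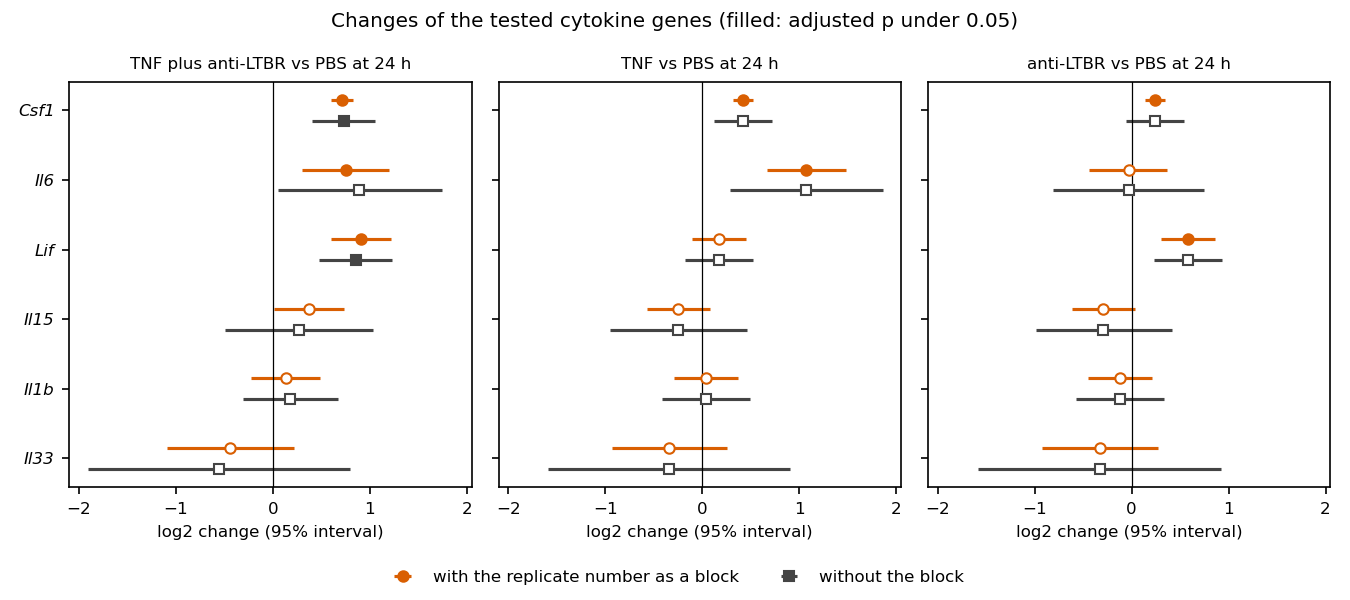
Log2 change at 24 h with its 95% interval (horizontal axis) of the 6 tested cytokine genes, in a panel each for TNF plus anti-LTBR, TNF and anti-LTBR against PBS, with the array number as a block (circles) and without it (squares), filled where the adjusted p is under 0.05. Without the block the filled points are Csf1 and Lif with the combination, and the intervals are shorter with the block.

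Csf1, the macrophage growth factor, was highest with the combination at the numbers 1 to 3, highest with TNF at the number 0, which has no combination array, and lowest with PBS at all of them. With TNF plus anti-LTBR its signal was 12060.8, 9720.6 and 9015.8 on the arrays numbered 1 to 3. With TNF it was 7448.7, 10787.1, 7293.6 and 7797.3 on the arrays numbered 0 to 3, with anti-LTBR 7220.8, 8798.0, 6361.9 and 6830.7, and with PBS 6128.5, 7264.6, 5733.4 and 5578.5. The array numbered 1 was the highest of each group, every combination array lay above every PBS array, and the lowest TNF array lay just above the highest PBS array, while anti-LTBR overlapped PBS. The share of all genes whose groups separate in this way was not counted. The means were 10265.7 ± 1594.0 with the combination (SD, n = 3), 8331.7 ± 1650.4 with TNF, 7302.8 ± 1056.8 with anti-LTBR and 6176.2 ± 762 with PBS (SD, n = 4 each).

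The Csf1 log2 change with TNF plus anti-LTBR was 0.73 ± 0.15 (SE), a 1.66-fold rise (limma, adjusted p = 0.0181), and 0.71 ± 0.05 with the block (limma, adjusted p = 9.43e-07). Without the arrays numbered 0 it was 0.73 as well, with an adjusted p of 0.0545 in limma and 2.71e-06 with the block. The call without the block was also lost at equal array medians (limma, adjusted p = 0.195), and without the combination array numbered 1 or 2 or the PBS array numbered 2 or 3 (limma, adjusted p = 0.109, 0.0603, 0.0585 and 0.0563). On the TNF arrays it was 0.42 ± 0.14 (limma, adjusted p = 0.558, and 0.000169 with the block), and with anti-LTBR 0.24 ± 0.14 (limma, adjusted p = 0.999, and 0.0117 with the block). Every same-number pair showed these directions, 3 of 3 for the combination, 4 of 4 for TNF and 4 of 4 for anti-LTBR.

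With the number as a block, Csf1 was called higher with both agonists than with either alone, and the call against TNF depended on the scaling. The combination exceeded TNF by 0.31 ± 0.15 on the log2 scale (limma, adjusted p = 0.998) and by 0.29 ± 0.05 in the blocked fit (adjusted p = 0.00523), or 0.26 with the block at equal array medians (adjusted p = 0.0902). It exceeded anti-LTBR by 0.49 ± 0.15 (limma, adjusted p = 0.475) and by 0.47 ± 0.05 in the blocked fit (adjusted p = 0.000317). TNF and anti-LTBR differed by 0.18 ± 0.14, uncalled in limma without the block (adjusted p = 1) and with it (adjusted p = 0.119). The interaction, the combination's gain over TNF minus the gain of anti-LTBR over PBS, was 0.07, with a 95% interval of -0.37 to 0.51, and 0.05 with the block, -0.10 to 0.21. Its sign changed with the scaling of the arrays, to -0.05 at equal medians.

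The other 3 Csf1 probe sets gave larger changes from PBS in the same directions. With TNF plus anti-LTBR against PBS they had log2 changes of 1.30, 1.01 and 1.00, with adjusted p of 0.098, 0.0509 and 0.0177 in limma over 21864 probe sets, and 4.96e-06, 6.01e-06 and 1.15e-06 with the block. The array with the lowest values, PBS numbered 3 on the first of these probe sets, had 712.3, and the combination array numbered 3 had 2058.0 there. All 4 probe sets, which read the same arrays, had every combination array above every PBS array. How many of all genes had this was not counted. On these other 3 probe sets the TNF arrays overlapped the PBS arrays.

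**Figure D3:**
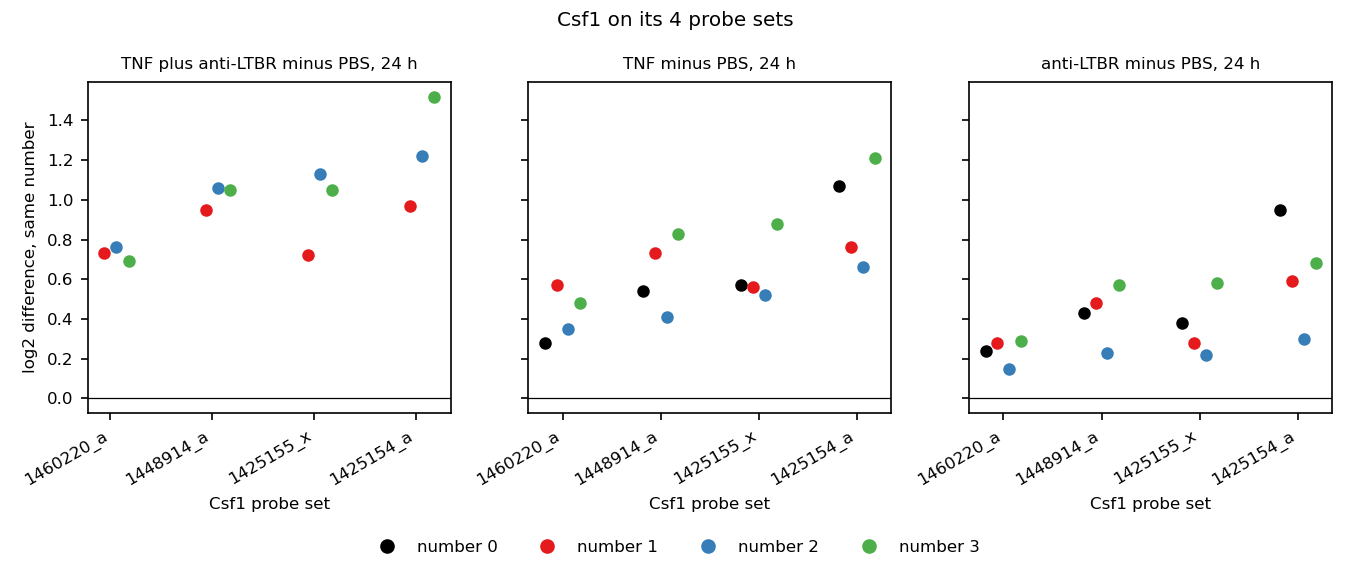
Difference (log2) between each treated array and the same-number PBS array at 24 h (vertical axis) on the 4 Csf1 probe sets (horizontal axis), in a panel each for TNF plus anti-LTBR, TNF and anti-LTBR, with colours for the array numbers. All points lie above 0, from 0.69 to 1.52 for the combination, 0.28 to 1.21 for TNF and 0.15 to 0.95 for anti-LTBR.

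Il6, the founding member of the gp130 family, had its highest array at each number with TNF alone, and with the block it rose in both groups that received TNF. With TNF plus anti-LTBR its signal was 613.8, 438.0 and 337.3 on the arrays numbered 1 to 3. With TNF it was 279.0, 947.9, 723.9 and 354.5 on the arrays numbered 0 to 3, with anti-LTBR 160.2, 394.0, 235.2 and 193.3, and with PBS 255.2, 313.7, 225.1 and 176.2. Every combination array lay above every PBS array, TNF overlapped PBS through its array numbered 0, and anti-LTBR overlapped PBS. The share of all genes with such a separation was not counted, so it is a description only.

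The Il6 log2 change with the combination was 0.89 ± 0.39 (limma, adjusted p = 0.391) and 0.75 ± 0.21 in the blocked fit (adjusted p = 0.0211). On the TNF arrays it was 1.07 ± 0.36, or 2.11-fold (limma, adjusted p = 0.569), and 1.07 ± 0.19 in the blocked fit (adjusted p = 0.00405). It was 1.39 without the arrays numbered 0 (limma, adjusted p = 0.268, and 0.000129 with the block). With anti-LTBR it was -0.03, with a 95% interval of -0.81 to 0.75 in limma, and its sign changed with the scaling, to 0.04 at equal medians.

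TNF exceeded anti-LTBR in Il6 by 1.11 ± 0.36 (limma, adjusted p = 1) and by 1.11 ± 0.19 in the blocked fit (adjusted p = 0.0156), in 4 of 4 same-number pairs. The combination exceeded anti-LTBR by 0.92 ± 0.39 (limma, adjusted p = 0.978) and by 0.78 ± 0.21 in the blocked fit (adjusted p = 0.044), a call that was lost with the block at equal array medians (0.057) and over all 21864 probe sets (0.0517). The combination was below TNF in 3 of 3 same-number pairs, by a log2 difference of -0.18 with a 95% interval of -1.03 to 0.66, and with the block of -0.32, -0.77 to 0.13 (limma, adjusted p = 0.998, and 0.409 with the block). The difference was not called, and without the block it was 0.11 without the TNF array numbered 1 and 0.02 without the combination array numbered 3.

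Lif, which keeps stem cells undifferentiated in culture and acts through Lifr and Il6st, had its highest array with the combination at the numbers 1 to 3, and with the block it rose in both groups that received the antibody. With TNF plus anti-LTBR its signal was 268.8, 240.5 and 255.0 on the arrays numbered 1 to 3. With TNF it was 178.2, 159.3, 142.2 and 139.9 on the arrays numbered 0 to 3, with anti-LTBR 252.4, 202.2, 165.8 and 220.1, and with PBS 136.1, 136.6, 105.5 and 172.5. The combination arrays lay above all TNF and all PBS arrays, the TNF arrays overlapped PBS, and the anti-LTBR arrays overlapped PBS only through the array numbered 2. Here too the share of all genes with such a separation was not counted.

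The Lif log2 change with the combination was 0.86 ± 0.18, or 1.81-fold (limma, adjusted p = 0.0164), and 0.91 ± 0.14 in the blocked fit (adjusted p = 0.000452). Without the arrays numbered 0 it was 0.86 (limma, adjusted p = 0.0323). The call without the block was lost without any 1 of the combination arrays numbered 1, 2 and 3 (limma, adjusted p = 0.0855, 0.0563 and 0.0565) and without the PBS array numbered 2 (0.051). With anti-LTBR it was 0.58 ± 0.16 (limma, adjusted p = 0.448, and 0.0201 with the block, or 0.139 with the block and without the arrays numbered 0), higher in 4 of 4 same-number pairs. On the TNF arrays it was 0.17 ± 0.16, with a 95% interval of -0.18 to 0.52 (limma, adjusted p = 1, and 0.524 with the block).

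The combination exceeded TNF in Lif by 0.69 ± 0.18 (limma, adjusted p = 0.39) and by 0.74 ± 0.14 in the blocked fit (adjusted p = 0.00794). Against anti-LTBR it differed by 0.28 ± 0.18, with a 95% interval of -0.10 to 0.66 (limma, adjusted p = 0.998, and 0.226 with the block). TNF was below anti-LTBR in 4 of 4 same-number pairs, by a log2 difference of -0.41 ± 0.16, which was not called (limma, adjusted p = 1, and 0.213 with the block). The opposite order of the agonists in Il6 and Lif is thus called with the block for Il6 only. The other Lif probe set was below the array median on all 21 arrays, at 9.2 to 103.4, and was not tested. It did not show the same rises. There anti-LTBR was higher than PBS in 0 of 4 same-number pairs, and the combination in 2 of 3. Its means were 36.8 with the combination and 37.8 with PBS. At 2 h it had 16.2 with TNF and 15.1 with PBS (1.04-fold).

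**Figure D4:**
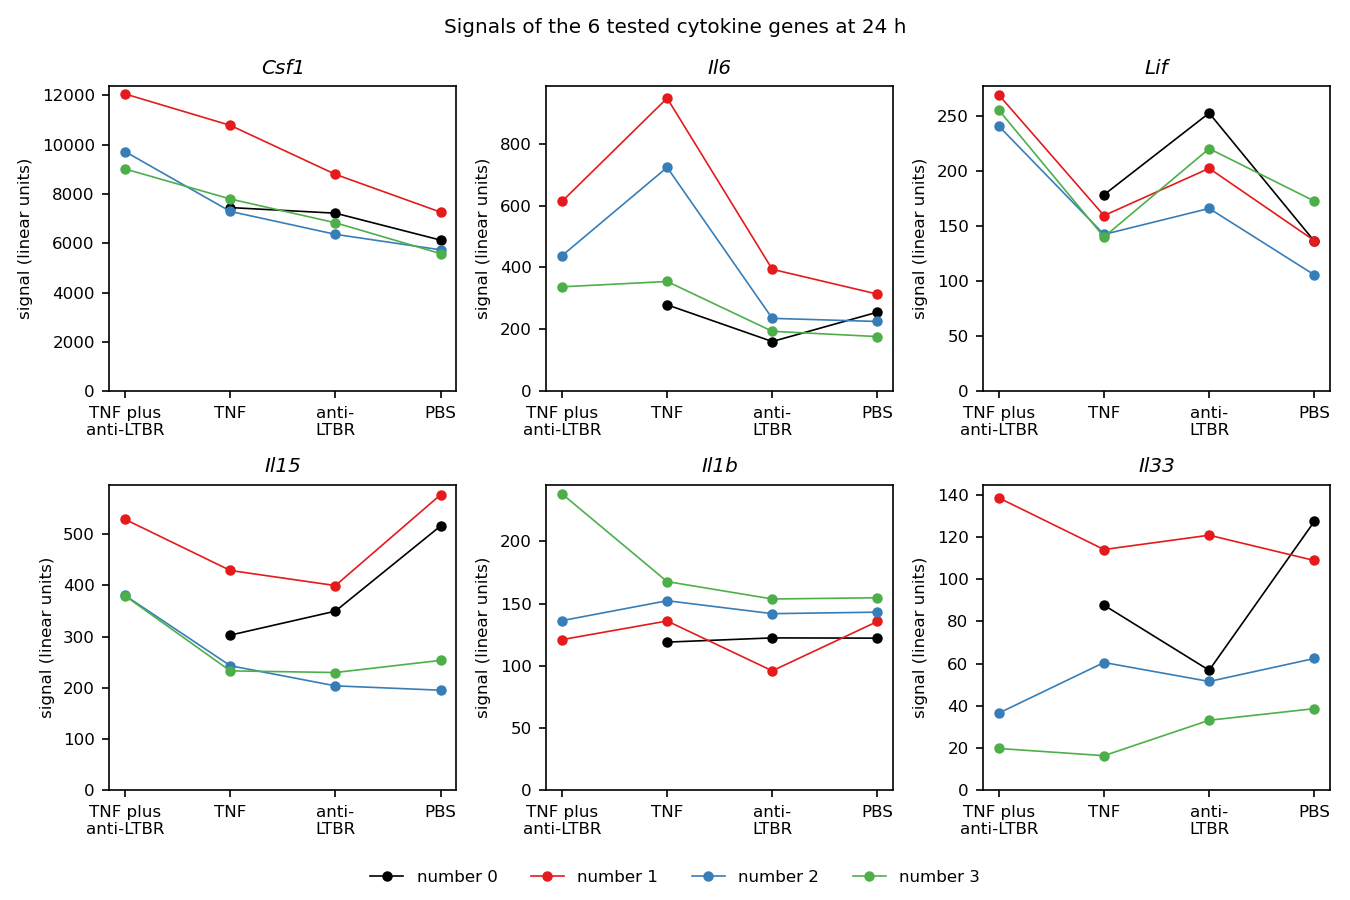
Signals at 24 h (linear units, vertical axis from 0) of the 6 tested cytokine genes in the groups TNF plus anti-LTBR, TNF, anti-LTBR and PBS, with 1 point an array and a line joining the arrays of the same number. The lines for Csf1 descend at every number, those for Il6 are highest with TNF at every number, and those for Lif are highest with the combination at the numbers 1 to 3.

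Il15, a growth factor of lymphocytes, was higher with both agonists than with either alone when the number was a block, although it was not called against PBS. Its signal was 529.3, 380.5 and 379.6 with TNF plus anti-LTBR, numbered 1 to 3. With TNF it was 302.9, 429.4, 243.1 and 233.0 on the arrays numbered 0 to 3, with anti-LTBR 349.8, 399.8, 203.7 and 229.8, and with PBS 516.3, 577.4, 195.2 and 253.5. All groups overlapped, and in each the array numbered 1 was the highest.

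The Il15 log2 change of the combination against TNF was 0.52 ± 0.36 (limma, adjusted p = 0.998) and 0.62 ± 0.17 in the blocked fit (adjusted p = 0.0408). Against anti-LTBR it was 0.56 ± 0.36 (limma, adjusted p = 0.998) and 0.66 ± 0.17 in the blocked fit (adjusted p = 0.0344). The call against TNF was lost with the block on the arrays numbered 1 to 3 alone (limma, adjusted p = 0.0841) and at equal array medians (0.0552). Against PBS the combination was at 0.27, with a 95% interval of -0.49 to 1.03, TNF at -0.25, -0.95 to 0.46, and anti-LTBR at -0.29, -0.99 to 0.42. The interaction was 0.80 ± 0.48 (limma, adjusted p = 1) and 0.90 ± 0.22 in the blocked fit (adjusted p = 0.308).

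In the comparisons between treated groups, 0 of the 6 genes were called without the block. The combination against TNF called 0.0482% of all genes, the combination against anti-LTBR 0.362%, and TNF against anti-LTBR 0.0161%. With the block, Csf1, Lif and Il15 were called against TNF (3 of 6, against 6.78% of all genes) and Csf1, Il6 and Il15 against anti-LTBR (3 of 6, against 5.58%). Il6 alone was called between TNF and anti-LTBR with the block (1 of 6, against 0.723%). The interaction called 0 of 6 in both fits, against 0% of all genes without the block, where 165 genes had an unadjusted p under 0.05 in limma, and 0.0161% with it. Among the 6 genes the lowest unadjusted p of the interaction was that of Il15, 0.119 without the block and 0.00133 with it (limma).

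The interleukin 1 family genes gave no call with either fit. Il1b, which encodes the precursor of a secreted inflammatory cytokine, had 121.0 to 238.3 with TNF plus anti-LTBR, 119.0 to 167.7 with TNF, 95.9 to 153.7 with anti-LTBR and 122.2 to 154.7 with PBS. Its groups overlapped, and its highest value was the combination array numbered 3. The Il1b log2 change was 0.18 with the combination, 0.04 with TNF and -0.12 with anti-LTBR, with 95% intervals of -0.31 to 0.67, -0.41 to 0.49 and -0.57 to 0.33. Il33, an alarmin released from damaged cells, had 19.7 to 138.6 with the combination, 16.3 to 114.1 with TNF, 33.1 to 120.9 with anti-LTBR and 38.6 to 127.4 with PBS. Its probe set was above the array median on 4 of the 15 arrays, and its log2 change with the combination was -0.56, with an interval as wide as -1.91 to 0.79.

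Il11, Csf2 and Csf3 were below the array median on all 21 arrays, and they were not tested in the main fit. In a fit without the filter, over 18193 genes, they and Tslp were not called against PBS. The lowest adjusted p there was that of Il11 with the combination, at a log2 change of -0.50 ± 0.22 (limma, adjusted p = 0.502). Il11, the gp130 cytokine linked to fibrosis, had 42.8 to 59.6 with TNF plus anti-LTBR, 57.1 to 98.6 with TNF, 54.0 to 63.4 with anti-LTBR and 54.6 to 93.0 with PBS. Csf2 had 7.2 to 13.6 with the combination, 5.5 to 9.7 with TNF, 5.4 to 9.7 with anti-LTBR and 7.3 to 10.4 with PBS. Csf3 had 21.8 to 36.3 with the combination, 18.7 to 80.7 with TNF, at most 24.6 with anti-LTBR and 18.1 to 89.3 with PBS. At 2 h and 6 h Csf3 had 34.6 and 26.1 on the TNF arrays and 87.2 and 14.4 on the anti-LTBR arrays, against 74.6 and 54.8 on the PBS arrays. A low array signal does not show that the gene was silent.

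Receptors for several of these cytokines were measured in the same cells. Of 19 receptor and decoy genes 11 were tested, and 1 rose with TNF plus anti-LTBR, against 2.45% of all genes called: Il6st, the subunit shared by Il6, Lif and Il11, with a signal of 8392.3 ± 1492.3 (SD, n = 3) against 5904.2 ± 496 with PBS (SD, n = 4). Its log2 change was 0.50 ± 0.12 (limma, adjusted p = 0.045), and with TNF 0.44 ± 0.11 (limma, adjusted p = 0.212, and 0.00333 with the block). With the block 3 receptor genes were called with the combination, Il6st, Osmr (the oncostatin M receptor) and Il1rn (the interleukin 1 receptor antagonist), 1 with TNF and 0 with anti-LTBR, against 19.5%, 5.93% and 4.78% of all genes. The median log2 change of the 11 genes was 0.17 with the combination, 0.05 with TNF and 0.13 with anti-LTBR, against 0.00, -0.02 and -0.01 over all genes.

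The other receptors are given by the range of their signal over the 15 arrays at 24 h. Of the receptors of the gp130 family, Osmr had 4975.9 to 9503.5, Lifr 564 to 1321.2 and Il6ra 232 to 488. Csf1r, the receptor of Csf1 and a macrophage gene, had 428 to 1303.6, and Csf2ra had 160 to 293. Crlf2, the specific Tslp receptor chain, had 2071.3 to 3539.3, whereas its partner Il7r, at 46 to 131, was below the median on all 15 arrays. Il1rap had 336 to 789, Il1r1 132 to 974, Il1rn 65.2 to 365 and Il15ra, which presents Il15 at the cell surface, 103 to 351. Csf2rb (45.8 to 85.7), Csf3r (31.3 to 146), Il1r2 (5.7 to 81.3) and Il2rb (13.4 to 143) were above the median on at most 2 of the 15 arrays. Signals of different probe sets are not compared with each other. At 2 h, on 1 array each, Il15ra had a log2 difference from PBS of 2.35 with TNF and 1.54 with anti-LTBR. Il15 itself had -0.44 and -0.37. Il15ra was the 1 receptor gene at least 2-fold higher of 12 considered with TNF and of 11 with anti-LTBR. Among all genes considered, 1.55% and 0.472% were. At 6 h Il15ra was not 2-fold higher with either agonist, while Csf3r (2.44) and Il1rn (1.53) were with TNF. These were 2 of 12 receptor genes considered, against 2.07% of all genes considered. With anti-LTBR it was 0 of 11, against 0.759%. A gene could enter through its treated array alone, so these counts are a description only.

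Among 12 tested Jak, Stat and Socs genes, which carry the signals of these receptors, 0 were called in the 3 comparisons with PBS without the block. With it 4 rose with the combination, 0 with TNF and 1 with anti-LTBR, against 19.5%, 5.93% and 4.78% of all genes. The median log2 change was 0.16 with the combination, 0.07 with TNF and -0.00 with anti-LTBR.

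Regulators of cytokine transcription and mRNA decay included genes called with each agonist. Of 15 tested, 5 rose with TNF plus anti-LTBR, 3 with TNF and 2 with anti-LTBR, and none fell in limma without the block, where 2.45%, 0.337% and 0.129% of all genes were called. With the block 10 rose and 1 fell with the combination, 6 rose with TNF, and 6 rose and 1 fell with anti-LTBR, against 19.5%, 5.93% and 4.78% of all genes called. The median log2 change was 0.36 with the combination, 0.18 with TNF and 0.13 with anti-LTBR. Irf1, an interferon-regulatory transcription factor, had 1777.5 ± 61.3 with the combination (SD, n = 3), 1247.3 ± 99.6 with TNF, 1203.4 ± 66.5 with anti-LTBR and 821 ± 58.7 with PBS (SD, n = 4 each). Its log2 changes of 1.11, 0.60 and 0.55 were all called (limma, adjusted p = 1.48e-05, 0.00227 and 0.0129).

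Zfp36l1, which speeds the decay of AU-rich mRNAs, rose in both groups that received the antibody, by 0.97 ± 0.13 with the combination and 0.79 ± 0.12 with anti-LTBR (limma, adjusted p = 0.000689 and 0.0147). Its signal was 5351.7 ± 496 with the combination (SD, n = 3), 3005.8 ± 412 with TNF, 4739.1 ± 410 with anti-LTBR and 2748.2 ± 383 with PBS (SD, n = 4 each). Tnfaip3, which limits NF-kB signalling, rose 4-fold with the combination (limma, adjusted p = 0.00101). Junb, an AP-1 subunit, rose by 1.41 ± 0.20 (limma, adjusted p = 0.00145). Bcl3, which binds NF-kB subunits in the nucleus, had log2 changes of 2.70 with the combination, 2.24 with TNF and 1.82 with anti-LTBR (limma, adjusted p = 0.00362, 0.0323 and 0.177, and 0.00558 for anti-LTBR with the block). Its PBS signals, 11.2 to 102, were all below the array median. Bcl3 thus entered the test and the counts of regulators through treated arrays alone, and its changes are a description only.

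Of 5 tested genes of interleukin 1 processing, 2 rose with the combination, 1 with TNF and 1 with anti-LTBR, against 2.45%, 0.337% and 0.129% of all genes called. With the block 4, 2 and 1 rose, against 19.5%, 5.93% and 4.78%. Casp4, an inflammatory caspase, had 1284.1 ± 54.4 with the combination (SD, n = 3), 1061.5 ± 133 with TNF, 805 ± 81.3 with anti-LTBR and 312 ± 85.6 with PBS (SD, n = 4 each), and was called in all 3 comparisons. Gsdmd, the pore protein through which mature Il1b leaves cells, rose by 1.20 ± 0.20 with the combination (limma, adjusted p = 0.0053). The median log2 change of the 5 genes was 1.09 with the combination, 0.59 with TNF and 0.32 with anti-LTBR, while Il1b itself was not called. Of 13 tested genes among 33 other cytokines, 0 rose and 1 fell with the combination without the block, against 2.45% of all genes called. With the block 2 rose (Mif and Il7) and 4 fell (Kitl, Tgfb3, Ctf1 and Tgfb2), against 19.5%, and these were named after their values were seen. With TNF 1 rose and 3 fell with the block, and with anti-LTBR 1 rose and 2 fell, against 5.93% and 4.78%, and 0 were called without it. The gene that fell in both fits was Ctf1, cardiotrophin 1, a further gp130 cytokine, with a signal of 808 ± 91.6 (SD, n = 3) against 1177.2 ± 65.2 with PBS (SD, n = 4) and a log2 change of -0.54 ± 0.10 (limma, adjusted p = 0.01).

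**Figure D5:**
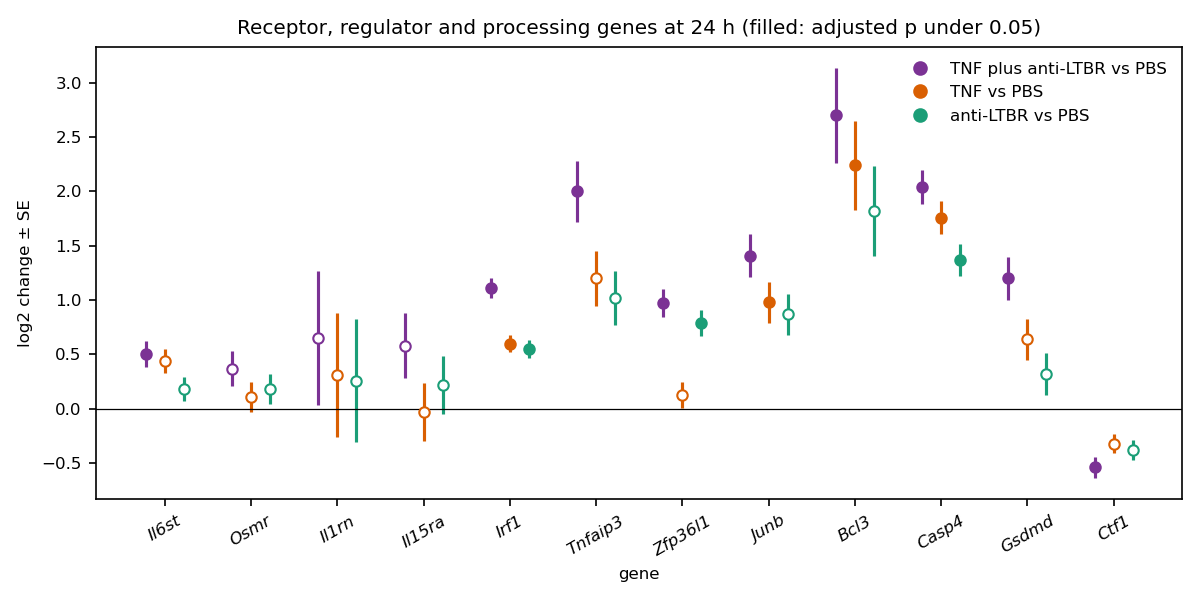
Log2 change ± SE at 24 h (vertical axis) of 12 receptor, regulator, processing and other cytokine genes (horizontal axis) with TNF plus anti-LTBR, TNF and anti-LTBR against PBS, filled where the adjusted p without the block is under 0.05. Casp4 and Irf1 are filled in all 3 comparisons, Zfp36l1 with the combination and anti-LTBR only, and Ctf1 lies below 0 in all 3.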

How the data were processed

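Gene expression was measured on 21 mouse arrays. The deposited values are linear signal intensities, made with GCOS 1.4 per the submitters' processing notes, and how they were summarized and background-corrected is not given in these sources. They were used as deposited, on the log2 scale after adding 10.2, a signal that 10% of values at 24 h lie under, which understates changes of low signals. The number of arrays limits the precision. Groups and numbers follow the labels. The 64 control probe sets were not used, and 34945 probe sets carry 1 gene symbol.

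At 24 h each gene was represented by its passing probe set with the highest mean, where passing means above the median of the array on at least 3 of 15 arrays. The 12446 genes were fitted with limma 3.58.1 in R 4.3.3 with a variance trend (11 residual degrees of freedom, 8 with the block), for 7 comparisons with Benjamini-Hochberg adjustment over all genes. The fit without the block was run on simulated arrays that were independent of each other, which these arrays are not. The blocked fit was not simulated. At 2 h and 6 h a pair of single arrays was compared, with no test.

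The numbers pair the arrays: with group means removed, the 21 same-number pairs at 24 h correlated at 0.46 to 0.81 and the 63 others at -0.58 to 0.21, and 15 of 15 arrays correlated best with their own number. Values with the number as a block stand beside the cytokine results and list counts that they change. Named genes were the 10 cytokine genes, every listed receptor by its level, and from each list at most 4 genes called against PBS. These were ranked by adjusted p with the combination. Bcl3, ranked below 4 other regulators, was named after its values were seen. The members, lists and tests were chosen with earlier results of these data known.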

Additional observations from a re-analysis of the deposited data

Results flagged for a closer look

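Of 42 sets of 4 arrays (14 probe sets in 3 groups at 24 h), 6 held an array far from the other 3 by Dixon's test, and chance marks about 1 in 20. Of Csf1, the TNF array numbered 1 stood at 10787.1 on the probe set used for the tests, and the PBS array numbered 1 at 2383.1 on another probe set. Of Lif, the arrays numbered 3 stood highest on the probe set that was not tested, at 56.1 with TNF and 103.4 with PBS. Of Csf3, whose signals were below the array median throughout, the TNF array numbered 0 stood at 80.7 and the anti-LTBR array numbered 3 at 24.6. Both Csf1 arrays and both Lif arrays share their number, 1 and 3.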

How the results depend on the processing

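For TNF plus anti-LTBR against PBS, 2 cytokine genes were called, 1 (Lif) with arrays scaled to equal medians, 1 (Lif) on the arrays numbered 1 to 3 only, and 0 to 2 when 1 array was left out. With the array number as a block, alone, with equal medians (added after seeing the data) and on numbers 1 to 3 only (likewise added), the counts of cytokine genes were 2, 2 and 2 for TNF against PBS and 2, 2 and 1 for anti-LTBR against PBS. They were 3, 1 and 2 for the combination against TNF, 3, 2 and 3 for the combination against anti-LTBR, and 1, 1 and 1 for TNF against anti-LTBR, all 0 without the block. The causes were not tested.

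Changes whose sign depended on a setting were small and uncalled. The Csf1 interaction was -0.05 at equal medians, -0.06 with the block at equal medians, and -0.05 to 0.20 with 1 array left out. When every probe set was tested, the Csf1 probe set of smallest p was counted. Its -0.25 belongs to another probe set, and the one used for the other tests stayed at 0.07. Il6 with anti-LTBR was 0.04 at equal medians, with or without the block, 0.01 after quantile normalization, 0.17 on numbers 1 to 3, with or without the block, and -0.28 to 0.14 with 1 array left out. The Lif interaction was -0.01 at equal medians. With 1 array left out, Il1b ran from -0.10 to 0.36 with the combination, -0.03 to 0.12 with TNF and -0.21 to 0.00 with anti-LTBR, Il33 with TNF from -0.62 to 0.12, Il6 between the combination and TNF from -0.47 to 0.11, and the Il6 interaction from -0.43 to 0.14.

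Over all genes, the combination against PBS called 305, 182 at equal medians and 2422 with the block, and TNF and anti-LTBR called 42 and 16, and 738 and 595 with the block. The combination called 6 genes against TNF and 45 against anti-LTBR, and 844 and 694 with the block. TNF against anti-LTBR called 2, and 90 with the block. Of the changes of single cytokine genes under all alternatives, 822 kept their direction and call, 31 gained a call, 10 lost one and 25 changed sign. The counts at 2 h and 6 h did not move over 3 settings. Signals near the array median limit Il33, Il1b and Lif, and those below it Il11, Csf2, Csf3 and Tslp at 24 h.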
